A study of Mus musculus with 10 samples.

Results

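The 41 genes described here act from the end of the G2 phase of the cell cycle to the separation of daughter cells. They were chosen by name: the members are the rows of the combined count table whose symbol equals 1 of 41 listed symbols, and all 41 were found among the 39017 genes of that table. Polyadenylated RNA was measured in lung tumors of C57BL6/J mice, with 5 libraries labelled control (KP tumors) and 5 labelled Glut1-KO (KPG1 tumors). Among the alleles that both genotypes shared was p53Fl/Fl, floxed copies of the tumor suppressor gene Trp53. The KPG1 genotype carried in addition Glut1Fl/Fl, floxed copies of Slc2a1, which encodes the glucose transporter Glut1. The genotype label of the controls gives 1 floxed and 1 wild-type Slc2a1 allele, the design text calls them Glut1-WT, and the published methods name controls of both kinds. Ad5CC10-Cre, an adenovirus that expresses Cre from the promoter of the club cell gene CC10, was given into the trachea, so that recombination was directed to CC10-positive airway cells and host cells other than leukocytes could stay in the sample without recombining. Tumors were dissected 20 weeks and 1 day later, dissociated and depleted of CD45-positive leukocytes with magnetic beads. The age of the animals is not given in the sources used here. All 5 controls were labelled male, Glut1-KO replicates 1 to 3 female and Glut1-KO replicates 4 and 5 male, so sex and genotype cannot be fully told apart.

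Cells enter mitosis when the kinase Cdk1, bound to A- and B-type cyclins, becomes active, and the kinases Plk1, Aurka and Aurkb then act on centrosomes, spindle and chromosomes. Kinetochores tie each chromosome to spindle microtubules, and the spindle checkpoint holds back Cdc20 and the ubiquitin ligase APC/C until every chromosome is attached, after which separase cleaves cohesin and the cell divides. Transcripts of this machinery are made late in the cycle and are low in resting cells, and in dividing cells their promoters are served by Foxm1 and by the MuvB complex with B-Myb, which binds a short element called the cell cycle genes homology region (CHR). In lung tumors these transcripts are commonly read as a measure of how many cells are cycling. In bulk RNA, fewer cells in mitosis and less of these transcripts per cell cannot be told apart.

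The promoter sequences are shown because the CHR is a sequence that many genes of this class share. Its part in the members' levels was not tested. RefSeq (GRCm38.p6) gave 36 promoters for 34 of the 41 members, each running from 250 bases before to 50 bases after a start site. No entry was found for Aurkb, Ccna2, Cdc25c, Foxm1, Kif20a, Spc24 and Tpx2. Ect2 and Prc1 had overlapping promoters from different start sites. For 29 of the 36 promoters, the bases after the start site lay in an annotated transcript of the gene on the same strand. The start site of the promoter equalled the RefSeq start of the gene in 18 of the 34 members. The following 4 promoters were chosen for holding the CHR, as the first such member in alphabetical order in each of the first 4 role groups, so Bub1 (the TTCGAA variant only) and Birc5 (neither form) were passed over. Capitals mark the CHR (TTTGAA or its reverse complement TTCAAA), the CHR variant TTCGAA, and the CCAAT box (CCAAT or its reverse complement ATTGG), with the strand in brackets.
Aurka chr2:172370521-172370820 (-): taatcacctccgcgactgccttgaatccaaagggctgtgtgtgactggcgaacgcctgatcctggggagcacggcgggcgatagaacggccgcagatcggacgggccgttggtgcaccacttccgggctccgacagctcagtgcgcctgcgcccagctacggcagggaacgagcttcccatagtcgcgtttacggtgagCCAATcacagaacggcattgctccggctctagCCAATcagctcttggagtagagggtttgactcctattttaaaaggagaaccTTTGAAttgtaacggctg
Mki67 chr7:135716330-135716629 (-): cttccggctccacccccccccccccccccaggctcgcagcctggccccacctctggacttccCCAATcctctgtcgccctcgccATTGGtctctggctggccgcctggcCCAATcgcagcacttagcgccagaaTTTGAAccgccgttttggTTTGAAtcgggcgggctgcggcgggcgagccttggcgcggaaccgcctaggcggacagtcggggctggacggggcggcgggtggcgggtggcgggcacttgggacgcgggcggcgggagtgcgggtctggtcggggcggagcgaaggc
Bub1b chr2:118597961-118598260 (+): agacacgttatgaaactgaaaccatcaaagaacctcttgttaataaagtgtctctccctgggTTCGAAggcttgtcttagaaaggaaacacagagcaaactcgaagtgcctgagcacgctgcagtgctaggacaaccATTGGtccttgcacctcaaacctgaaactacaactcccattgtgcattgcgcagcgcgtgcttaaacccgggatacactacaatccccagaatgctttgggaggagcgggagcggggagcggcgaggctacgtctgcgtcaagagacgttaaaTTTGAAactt
Cdca8 chr4:124936868-124937167 (-): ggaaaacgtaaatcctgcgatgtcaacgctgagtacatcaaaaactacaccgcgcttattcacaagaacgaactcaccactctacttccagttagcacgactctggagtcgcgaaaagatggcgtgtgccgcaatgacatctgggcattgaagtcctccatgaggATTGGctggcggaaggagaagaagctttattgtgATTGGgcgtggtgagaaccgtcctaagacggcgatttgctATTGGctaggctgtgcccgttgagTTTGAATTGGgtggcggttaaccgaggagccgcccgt

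Aurka held the CHR 32 bases after the start site, with CCAAT boxes before it. Mki67 held the CHR 2 times, 116 and 98 bases before its start site, with CCAAT boxes further upstream. In Bub1b the CHR lay 40 bases after the start site and the TTCGAA variant 188 bases before it. In Cdca8 the CHR lay 13 bases after the start site and overlapped an ATTGG. Distances run from 0 at the first transcribed base of that promoter to the first base of the match.

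A CHR match was present in 28 of the 36 member promoters (77.8%), against 17.9% of all 32851 promoters of the same length and 11.9% of the promoters of protein-coding genes that were tested. The other G2/M and mitosis genes held it in 50% of 88 promoters, and G1/S and replication genes in 19.6% of 46. Within the stretch from 50 bases before to 30 bases after the start site, it was found in 63.9% of member promoters and in 4.33% of all promoters. The CCAAT box was found in 77.8% of member promoters and 37.4% of all promoters, and the TTCGAA variant in 8.33% and 1.56%. Of the 34 members with a promoter, 27 held the CHR or its variant, and Birc5, Ccnb1, Cenpe, Melk, Nek2, Nuf2 and Nusap1 held neither in this window. A match says only that these letters are present, and binding was not measured. The following windows give the CHR nearest to the start site in 10 further members, with 10 bases on each side, in the direction that reads TTTGAA (capitals).
Cdk1 chr10:69352912-69352937 (-): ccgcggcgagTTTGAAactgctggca
Plk1 chr7:122159455-122159480 (+): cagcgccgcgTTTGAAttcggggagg
Top2a chr11:99024197-99024222 (+): cctagtttcaTTTGAAcctttatcta
Cdc20 chr4:118437346-118437371 (-): acagttgggtTTTGAAggagccaatg
Espl1 chr15:102296256-102296281 (+): actagggataTTTGAAaggaggtgct
Cenpa chr5:30666892-30666917 (+): cgggtgatttTTTGAActgctggcga
Cenpf chr1:189688069-189688094 (-): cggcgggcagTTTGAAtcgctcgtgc
Kif11 chr19:37376353-37376378 (-): gcgcctcaatTTTGAAaaatggagac
Ect2 chr3:27153824-27153849 (-): actggattttTTTGAAtcggaggcgg
Anln chr9:22389170-22389195 (+): ccgttcaaaaTTTGAAtttcagcgcc

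In Top2a, Kif11 and Anln the printed strand is opposite to the gene. Anln held another CHR 28 bases after the start site, a few bases from the one at 21.

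**Figure D1:**
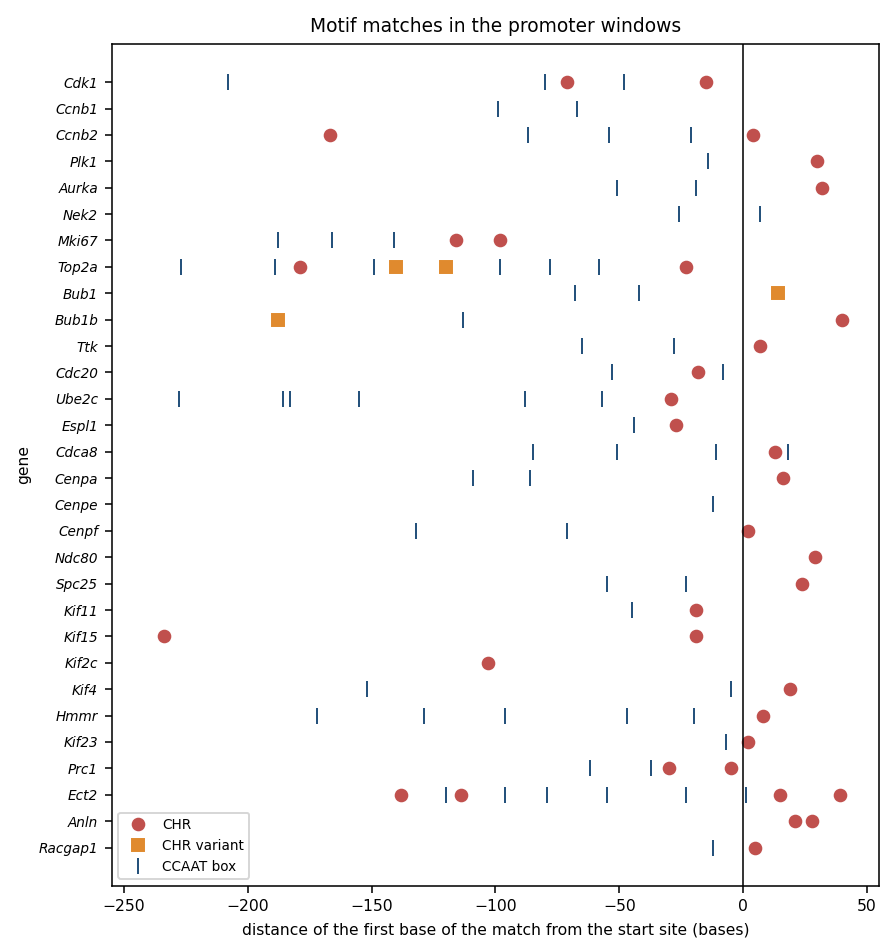
Positions of CHR (circles), CHR variant (squares) and CCAAT box (bars) matches in the promoters of the members that held a match, as the distance in bases of the first base of the match from the RefSeq start site, with genes on the vertical axis. Most CHR matches sit between 50 bases before and 30 bases after the start site, and for Ect2 and Prc1 the matches of both overlapping promoters are drawn, each from its own start site.

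The libraries held between 35.3 and 49.8 M counts (1 M is 1000000), and control replicate 2 was the deepest. Counts of the members ran from 77 (Cdc25c) to 8919 (Mki67) in a library, and all 41 members passed the filter on low counts with 15922 genes in all. Slc2a1, the floxed gene, stood at 118, 86.7, 92.6, 103.5 and 73.2 CPM in the controls and at 60.3, 42.5, 34.6, 92.4 and 102.9 CPM in the Glut1-KO group (CPM, counts per 1000000 counts, with libraries scaled by TMM, the trimmed mean of M-values). Glut1-KO replicates 1 to 3 were below every control, whereas replicates 4 and 5, which share a number in the deposited names, were inside the control range. The counts cover the whole gene, and which exons Cre removes is not given in the sources used here, so group names below are those of the labels. Control replicates 1, 2 and 5 share another such number, as do control replicates 3 and 4, and no label says what the numbers mark. Markers of alveolar type 2 cells summed to between 27866 and 85961 CPM, those of club cells to between 2127 and 12307 CPM and those of leukocytes to between 50.2 and 100.4 CPM. No gene of these lists was at 0 in all 10 libraries.

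No member passed the threshold between the groups (limma-voom, adjusted p under 0.05), and 0.0% of the 15922 genes tested did so in either direction. At an unadjusted p under 0.05 the count was 0 members, against 3.66% of all genes on the higher side and 4.02% on the lower side in the libraries labelled Glut1-KO. DESeq2 called 0.691% of all genes higher and 0.659% lower, and edgeR's quasi-likelihood test called 0 genes. Neither called a member. In 0 members did the groups separate without overlap, against 0.798% of all genes with the Glut1-KO libraries higher and 1.06% with them lower. The members' median log2 fold change was -0.16, with 34 of 41 below 0, against a median of 0.00 and 50.7% below 0 over all genes tested. The smallest adjusted p among the members in limma was 0.763 (Ccnb2). The standard errors, 0.19 to 0.40, left 95% intervals that reached down to between -1.09 and -0.36 and up to between 0.21 and 0.91 on the log2 scale. No label says that the libraries came from separate animals, so these p-values measure only the spread between the libraries.

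**Figure D2:**
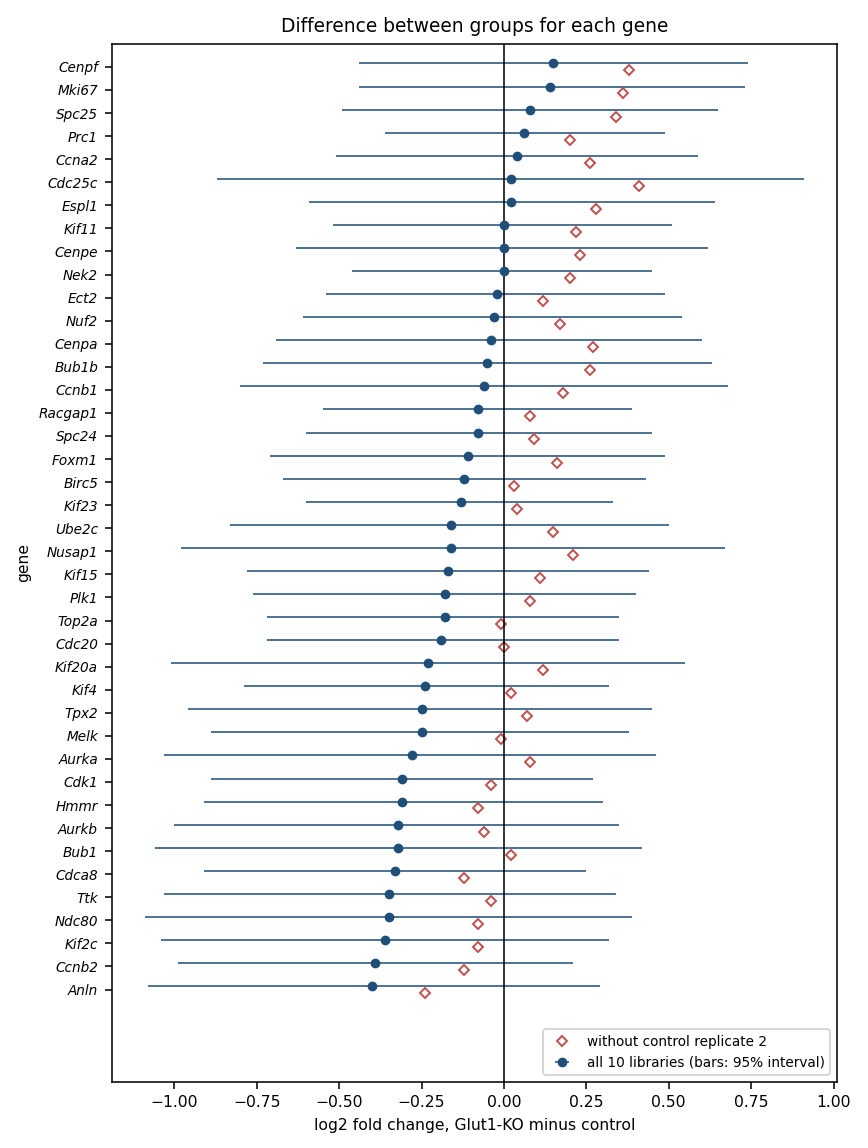
Log2 fold change of each member, libraries labelled Glut1-KO minus control, over all 10 libraries (filled circles, bars are 95% intervals of the limma fit) and without control replicate 2 (open diamonds), genes ordered by the first value. Every interval includes 0, and the members run from -0.40 (Anln) to 0.15 (Cenpf) with all libraries and from -0.24 to 0.41 without control replicate 2.

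Control replicate 2 stood apart from the other libraries. It was the highest of the 10 libraries in 40 of the 41 members, against 16.2% of all genes tested. The exception was Anln, which encodes the actin-binding scaffold anillin, with 55.1 CPM in control replicate 1 and 52.8 CPM in control replicate 2. The level in control replicate 2 was 1.51 to 3.23 times the mean of the other 4 controls, with a median of 2.16, against 0.971 over all genes tested. It was at least 1.5 times that mean in all 41 members, against 12.8% of all genes. With libraries scaled by their totals, control replicate 2 was the highest in 41 of 41 members and in 22.5% of all genes.

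**Figure D3:**
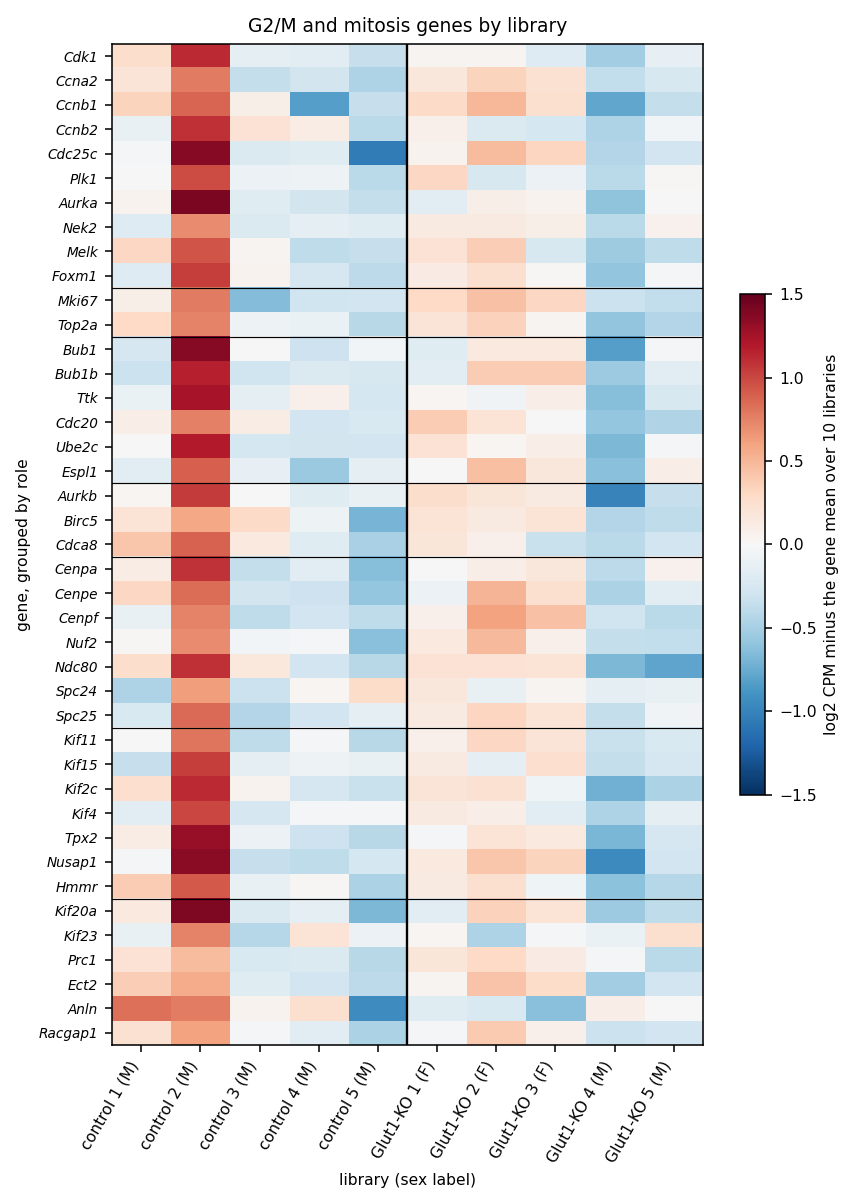
Level of each of the 41 members (rows, grouped by role between horizontal lines) in each library (columns, sex label in brackets), as log2 CPM minus the gene's mean over the 10 libraries. The control replicate 2 column is the darkest red in 40 of 41 rows, and Glut1-KO replicate 4 holds the lowest value in 21.

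Summed over the members, the controls stood at 1042, 1789, 835, 855 and 748 CPM and those of the Glut1-KO group at 1028, 1127, 1035, 717 and 829 CPM. The controls averaged 1054 ± 425 CPM (SD, n = 5) and the Glut1-KO libraries 947 ± 168 CPM (SD, n = 5). The 4 controls other than replicate 2 averaged 870.0 ± 124 CPM (SD, n = 4). The ranges overlapped, with the highest and a low value both among the controls. Without control replicate 2 the limma fit gave a median log2 fold change of 0.09 for the members, with 29 of 41 above 0 against 49.6% of all genes, adjusted p from 0.63 to 0.999 and 0 calls. The sign of the members' median therefore turned with that library. The median residual SD of the members on the log2 scale was 0.446, against 0.305 over all genes, and 0.310 against 0.290 without control replicate 2.

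Among the regulators of mitotic entry, no gene passed the test, with 8 of 10 below 0 and a median log2 fold change of -0.15. Cdk1, the kinase that drives entry into mitosis, had 42, 76, 31.4, 31.3 and 27.5 CPM in controls 1 to 5 and 36, 36, 30.5, 24.2 and 32.1 CPM in Glut1-KO 1 to 5. Control 2 was the highest and Glut1-KO 4 the lowest, and the groups overlapped, with a log2 fold change of -0.31 ± 0.26 (SE). Ccnb1, which encodes the partner cyclin B1, had 20.5, 29.7, 17.3, 9.18 and 12.8 CPM in controls 1 to 5 and 19.8, 22.9, 19.2, 9.45 and 12.7 CPM in Glut1-KO 1 to 5. Control 4 and Glut1-KO 4 were about level at the bottom, and the 3 female Glut1-KO libraries lay among the higher controls. Ccnb2, the other B-type cyclin, had 10.8, 24.9, 13.6, 12.6 and 8.8 CPM in controls 1 to 5 and 12.3, 10, 9.72, 8.47 and 11.3 CPM in Glut1-KO 1 to 5. Its log2 fold change of -0.39 ± 0.27 (SE, limma adjusted p 0.763) was -0.12 without control 2. Reads could be split with the pseudogene Ccnb2-ps, which had 55 counts over all libraries. Cdc25c, the phosphatase that activates Cdk1, had 3.75, 9.91, 3.29, 3.38 and 1.86 CPM in controls 1 to 5 and 3.97, 5.33, 4.81, 2.82 and 3.15 CPM in Glut1-KO 1 to 5. It had the widest spread of the members, 5.34-fold from the lowest to the highest library, and a log2 fold change of 0.02 ± 0.40 (SE).

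Plk1, the kinase that matures centrosomes and helps to activate Cdk1, had 11.5, 22.7, 10.8, 10.9 and 8.7 CPM in controls 1 to 5 and 14.3, 9.75, 10.8, 8.71 and 11.7 CPM in Glut1-KO 1 to 5. Aurka, the centrosomal Aurora kinase, had 13.4, 34.4, 11.4, 10.7 and 10.1 CPM in controls 1 to 5 and 11.5, 13.8, 13.4, 8.56 and 12.9 CPM in Glut1-KO 1 to 5. For both genes control 2 stood clear of the other 9 libraries, and in Aurka it was 2.49 times the next highest library. Foxm1, the transcription factor of late cell cycle genes, had 21.3, 49.8, 25.3, 20.5 and 18.6 CPM in controls 1 to 5 and 26.5, 28.7, 24.7, 16.1 and 23.8 CPM in Glut1-KO 1 to 5. Its log2 fold change was -0.11 ± 0.27 (SE), with the 4 lower controls and the Glut1-KO libraries in one range. Of the remaining regulators, Ccna2 (cyclin A2), Nek2 (a centrosome kinase) and Melk (a kinase of dividing cells) had log2 fold changes of 0.04, -0.00 and -0.25.

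Mki67 and Top2a are widely used marks of dividing cells. Mki67, which encodes the chromosome coat protein Ki-67, had 102, 166, 61.2, 78.4 and 78.8 CPM in controls 1 to 5 and 118, 130.0, 119.7, 77.1 and 74.2 CPM in Glut1-KO 1 to 5. Control 2 was the highest, control 3 the lowest, and the female Glut1-KO libraries were above all controls but replicate 2. The log2 fold change of Mki67 was 0.14 ± 0.27 (SE) with all libraries and 0.36 without control 2. Top2a, the topoisomerase that untangles sister chromatids, had 86.9, 119, 67.3, 66.2 and 53.1 CPM in controls 1 to 5 and 80.9, 90.2, 72.6, 47.1 and 52.1 CPM in Glut1-KO 1 to 5. Here the male Glut1-KO libraries lay below every control and the female ones among the controls, and the log2 fold change was -0.18 ± 0.24 (SE).

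**Figure D4:**
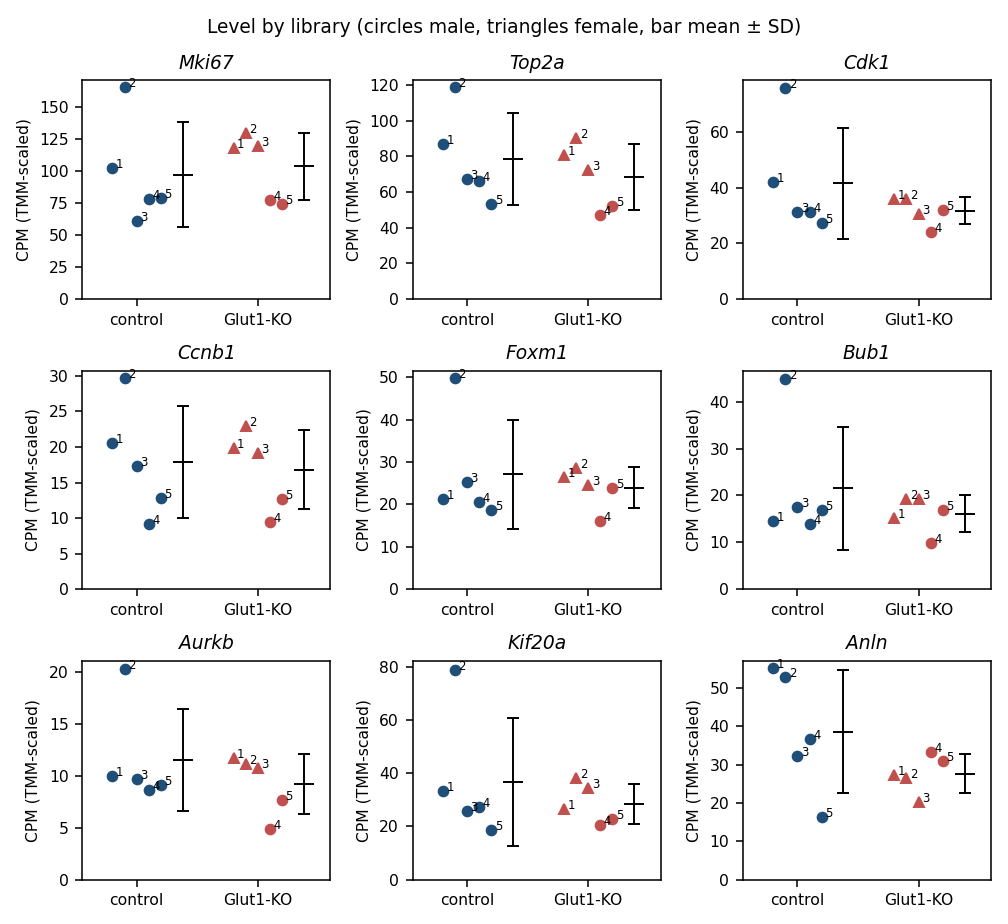
Level in CPM of 9 members in each library by label group (circles male, triangles female, numbers are replicates), with the mean and SD of each group of 5 beside the points. Control replicate 2 is the highest point in each panel but that of Anln, and male Glut1-KO libraries sit below the female ones in Mki67, Top2a, Ccnb1, Foxm1, Aurkb and Kif20a.

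The genes of the spindle checkpoint, APC/C and separase had the highest median ratio of control 2 to the other controls, 2.58, and none passed the test. Bub1, a checkpoint kinase at kinetochores, had 14.6, 44.8, 17.5, 14 and 16.9 CPM in controls 1 to 5 and 15.3, 19.3, 19.2, 9.82 and 17 CPM in Glut1-KO 1 to 5. The log2 fold change of Bub1 was -0.32 ± 0.33 (SE) with all libraries and 0.02 without control 2. Cdc20, which activates the APC/C, had 25.5, 40.3, 25.8, 19.6 and 20.4 CPM in controls 1 to 5 and 31.1, 27.4, 23.7, 16 and 17.4 CPM in Glut1-KO 1 to 5. The male Glut1-KO libraries were the lowest values, and the female ones overlapped the controls. Espl1, which encodes separase, had 13.3, 27.9, 13.7, 10.2 and 13.6 CPM in controls 1 to 5 and 14.9, 20.4, 16.9, 9.66 and 16.1 CPM in Glut1-KO 1 to 5. Its group means, 15.7 ± 6.93 and 15.6 ± 3.89 CPM (SD, n = 5 each), were nearly equal, and its log2 fold change was 0.02. Bub1b (the checkpoint protein BubR1), Ttk (the checkpoint kinase Mps1) and Ube2c (an APC/C ubiquitin-conjugating enzyme) were 2.70, 2.54 and 2.63 times as high in control 2 as in the mean of the other controls, and their log2 fold changes were -0.05, -0.35 and -0.16.

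The chromosomal passenger complex, which corrects faulty attachments and later directs cytokinesis, had 3 subunits among the members, all with a log2 fold change below 0 and none past the threshold. Its scaffold subunit Incenp, not a member, had a log2 fold change of -0.10 (limma adjusted p 0.928). Aurkb, its kinase, had 10, 20.3, 9.71, 8.6 and 9.09 CPM in controls 1 to 5 and 11.7, 11.1, 10.7, 4.88 and 7.68 CPM in Glut1-KO 1 to 5. Both male Glut1-KO libraries were below all controls, and the female ones were above all controls but replicate 2. Birc5, which encodes the subunit survivin, had 14.7, 19.1, 15.6, 12.1 and 7.91 CPM in controls 1 to 5 and 14.7, 14, 14.7, 9.45 and 9.83 CPM in Glut1-KO 1 to 5. Control 5 was the lowest value of Birc5 and control 2 the highest, so the controls spanned the whole range. Cdca8, which encodes borealin, had 15.1, 21, 12.6, 10 and 8.08 CPM in controls 1 to 5 and 12.9, 12, 8.98, 8.56 and 9.33 CPM in Glut1-KO 1 to 5. Its log2 fold change of -0.33 ± 0.26 (SE, limma adjusted p 0.784) was -0.12 without control 2.

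At centromere and kinetochore, 2 of 7 genes were above 0 and 5 below, and none passed the test. Cenpa, the histone variant that marks centromeres, had 17.8, 35.1, 12.9, 14.8 and 10.6 CPM in controls 1 to 5 and 16.6, 17.7, 18.5, 12.6 and 17.3 CPM in Glut1-KO 1 to 5. Cenpf, a kinetochore protein that accumulates in G2, had 24, 43.4, 19.9, 21.3 and 19.9 CPM in controls 1 to 5 and 27.2, 39.3, 35.2, 21 and 19.5 CPM in Glut1-KO 1 to 5. The female Glut1-KO libraries held the 3 highest values of Cenpf after control 2, and its log2 fold change of 0.15 ± 0.27 (SE) was the highest of the members. Cenpe, a kinetochore motor, had a log2 fold change of -0.00. The Ndc80 complex, the main microtubule anchor of the kinetochore, was measured in all subunits: Ndc80, Nuf2, Spc24 and Spc25 had log2 fold changes of -0.35, -0.03, -0.08 and 0.08. Ndc80 had the largest ratio of female to male Glut1-KO libraries of all members, 1.92.

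Of the spindle motors and microtubule binders, 7 of 7 were at or below 0 and none passed the test. Kif11, the motor that pushes spindle poles apart, had 30.4, 53.1, 23.4, 30.1 and 22.9 CPM in controls 1 to 5 and 32, 37.8, 34.8, 24.1 and 26.1 CPM in Glut1-KO 1 to 5. The log2 fold change of Kif11 was -0.00 ± 0.24 (SE). Tpx2, which activates Aurka on the spindle, had 29.1, 67, 25.5, 21.8 and 20.3 CPM in controls 1 to 5 and 26.7, 31.2, 29.9, 16.8 and 22.7 CPM in Glut1-KO 1 to 5. Control 2 was at 2.77 times the mean of the other controls in Tpx2, and Glut1-KO 4 was the lowest library. Kif15, a motor that works beside Kif11 and the member with the lowest level per length, had 6.48, 17, 7.43, 7.84 and 7.64 CPM in controls 1 to 5 and 9.06, 7.51, 9.81, 6.44 and 6.95 CPM in Glut1-KO 1 to 5. Kif2c (a microtubule depolymerase), Kif4 (a chromosome motor), Nusap1 (a microtubule bundler) and Hmmr (a spindle protein and hyaluronan receptor) had log2 fold changes of -0.36, -0.24, -0.16 and -0.31.

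Among the genes of the spindle midzone and cytokinesis, control 2 was least apart from the rest, with a median ratio of 1.59 to the other controls. Kif20a, a motor of the midzone, had 33.2, 78.9, 25.8, 27.2 and 18.8 CPM in controls 1 to 5 and 26.7, 38.1, 34.5, 20.5 and 22.9 CPM in Glut1-KO 1 to 5. It was the exception in this group, with control 2 at 3.00 times the mean of the other controls. Ect2, which switches on RhoA at the division plane, had 55.7, 63.7, 38.3, 35.4 and 32.9 CPM in controls 1 to 5 and 44.6, 58.4, 52.3, 30.1 and 35.4 CPM in Glut1-KO 1 to 5. Prc1, which crosslinks midzone microtubules, had 55.1, 65.7, 40.3, 40.7 and 35.6 CPM in controls 1 to 5 and 53.7, 58.2, 51.6, 46.6 and 35.7 CPM in Glut1-KO 1 to 5. In Ect2 and Prc1 the highest female Glut1-KO library came within 1.09-fold and 1.13-fold of control 2. Anln had 55.1, 52.8, 32.3, 36.6 and 16.2 CPM in controls 1 to 5 and 27.3, 26.6, 20.1, 33.3 and 31 CPM in Glut1-KO 1 to 5, and control 5 was the lowest library. With -0.40 ± 0.31 (SE, limma adjusted p 0.784) it had the lowest log2 fold change of the members, and it was the 1 member in which all 3 female Glut1-KO libraries lay below both male ones. Kif23 and Racgap1, which form the centralspindlin complex, had log2 fold changes of -0.13 and -0.08.

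The libraries labelled Glut1-KO differed among themselves along the sex label. In 29 of 41 members all 3 female libraries were above both male libraries, against 20.6% of all genes tested, and the opposite held for Anln alone, against 20.3%. The ratio of the female to the male mean ran from 0.767 (Anln) to 1.92 (Ndc80), with a median of 1.39. Both male Glut1-KO libraries were below all 5 controls in 6 members (Melk, Top2a, Cdc20, Aurkb, Ndc80 and Kif2c), against 8.57% of all genes. All 3 female Glut1-KO libraries were above the 4 controls other than replicate 2 in 12 members, against 6.51%. Control replicate 2 was the highest library in 40 of 41 members, against 16.2% of all genes. Leaving it out therefore favors such a count in the members over that in all genes. Glut1-KO replicate 4 was the lowest of the 10 libraries in 21 members, against 12.3% of all genes. The summed level averaged 1063 ± 55.4 CPM (SD, n = 3) in the female and 773 ± 79.2 CPM (SD, n = 2) in the male Glut1-KO libraries. These female libraries are also those in which Slc2a1 was low, and the male ones share a name number, so sex, Slc2a1 level and that number cannot be told apart here.

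Of 10 lists of cell type markers and stress genes, 5 separated the female from the male Glut1-KO libraries without overlap in their sums, in either direction. Such a separation was common among single genes, with the female libraries higher in 20.6% and lower in 20.3% of all genes tested. The part of these lists in the members' levels was not tested. The 16 dissociation stress genes, immediate early and heat shock genes that tissue digestion can induce, summed to 6466 to 7269 CPM in the female and 4482 to 4990 CPM in the male Glut1-KO libraries, against 7190 to 9062 CPM in the controls. Between the label groups 0 of these 16 genes passed the threshold in limma, 7 had an unadjusted p under 0.05, 15 were below 0 and the median log2 fold change was -0.35. With sex as a covariate all 16 were below 0 and the median was -0.72. The female libraries were also higher in the summed level of 8 alveolar type 1 markers (2218 to 2824 CPM against 1423 to 1919 CPM) and of 17 leukocyte markers (90 to 100.4 CPM against 50.2 to 82.3 CPM). They were lower in that of 8 epithelial and tumor markers (3652 to 4766 CPM against 5735 to 8056 CPM) and of 7 erythroid markers (188.8 to 231.6 CPM against 407.1 to 751 CPM). No gene of these 5 lists was at 0 in all libraries.

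With sex as a covariate, limma gave a median log2 fold change of -0.42, with 40 of 41 members below 0 against 51.1% of all genes, adjusted p from 0.456 to 0.998 and 0 members called (0.00628% of all genes were called higher and 0.0126% lower). The lowest values were those of Ndc80 (-0.93 ± 0.43, SE) and Aurkb (-0.84 ± 0.39, SE), with limma adjusted p of 0.461 and 0.471. All controls were male, so this fit sets the 2 male Glut1-KO libraries against the controls, and male libraries only gave the same median. Without control replicate 2 the median with the sex covariate was -0.17, with 33 of 41 members below 0 against 50.5% of all genes. With only the 3 female Glut1-KO libraries and all 5 controls, 25 of 41 members were above 0 (49.7% of all genes) and the median was 0.05. Limma called 0 members there, and 0.0243% of all genes higher and 0.0304% lower. Against the 4 controls other than replicate 2, 38 of 41 were above 0 (50.4% of all genes) and the median was 0.29. In that comparison 10 members had an unadjusted p under 0.05 on the higher side, against 8.08% of all genes, and 0 had an adjusted p under 0.05 in limma, against 0.0123% of all genes on the higher and 0.0246% on the lower side. Cenpf (0.67 ± 0.16, SE), Nusap1 (0.56 ± 0.15, SE) and Mki67 (0.64 ± 0.17, SE) had the smallest limma adjusted p, 0.212, 0.216 and 0.223. The sign of the members' difference thus depended on which libraries entered, and both comparisons of the female libraries, and the sex covariate without control replicate 2, were chosen after the data were seen. Leaving out control replicate 2, the highest library in 40 of 41 members against 16.2% of all genes, itself raises the members' differences. The shares over all genes are therefore no even yardstick for the comparisons without it.

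Per length, Cdc20 had the highest mean level of the members, 43.0 TPM (transcripts per 1000000 transcripts), followed by Mki67 (32.6 TPM), Kif23 (30.7 TPM) and Ccna2 (27.9 TPM). The ranges over libraries of these genes overlapped: Cdc20 ran from 25 to 79.9 TPM and Mki67 from 18.5 to 60.9 TPM. Kif15 had the lowest mean level, 2.55 TPM, then Cdc25c with 2.83 TPM and Ttk with 3.51 TPM, and their ranges overlapped too. The length used joins all annotated exons of a gene, 1868 bases for Cdc20 and 11020 bases for Kif15. It can exceed that of the transcript in use, so this order depends on the annotation.

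Other cell cycle lists were set beside the members. Of 97 other G2/M and mitosis genes tested, 0 passed the threshold in limma, edgeR or DESeq2 (7 had an unadjusted p under 0.05 in limma), 32 were above 0 and 65 below, and the median log2 fold change was -0.12 (0.08 without control 2). Control 2 was the highest library in 70 of these 97 genes, and the median ratio to the other controls was 1.71. Their smallest p on the lower side was that of Nde1, a dynein regulator at kinetochores and centrosomes (-0.42 ± 0.13, SE, limma adjusted p 0.449), and on the higher side that of Ncaph2, a condensin subunit (0.24 ± 0.10, SE, limma adjusted p 0.637). The 48 G1/S and replication genes, which act before mitosis, summed to 1089, 1738, 1118, 1072 and 1113 CPM in the controls and to 1240, 1205, 1134, 957 and 1201 CPM in the Glut1-KO libraries. Control 2 was again the highest, at 1.58 times the mean of the other controls, against 2.06 for the members. Of these 48 genes, 0 passed the threshold in limma and 1 had an unadjusted p under 0.05. The ratio of the members' sum to that of the G1/S genes was highest in control 2, 1.03, and lowest in control 5, 0.672.

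Of 12 subunits of the DREAM and MuvB-B-Myb complexes, which repress and activate late cell cycle genes, 0 passed the threshold in limma and 0 had an unadjusted p under 0.05. Mybl2, which encodes B-Myb, had 9.39, 25.2, 9.53, 7.68 and 9.16 CPM in controls 1 to 5 and 13.7, 10.5, 11.2, 8.37 and 8.04 CPM in Glut1-KO 1 to 5. Control 2 was the highest library of Mybl2, with the female Glut1-KO libraries next. Of 10 genes that brake the cell cycle, 0 passed the threshold in limma, 3 had an unadjusted p under 0.05, 5 were above 0 and 5 below with a median log2 fold change of 0.00, and control 2 was the highest library in 0. Among them Btg1, an antiproliferative gene, had 447, 432, 345, 378 and 357 CPM in the controls and 275, 277, 255, 285 and 332 CPM in the Glut1-KO libraries. The groups did not overlap in Btg1, and its log2 fold change was -0.46 ± 0.11 (SE, limma adjusted p 0.363). Cdkn2b and Cdkn2a, inhibitors of the G1 kinases, had log2 fold changes of -0.89 and -1.06 with limma adjusted p of 0.554 and 0.616. On the higher side the smallest p was that of Cdkn1c, which encodes the kinase inhibitor p57, with a log2 fold change of 0.53 (limma adjusted p 0.686).

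Markers of other cell types also set control replicate 2 apart, and their part in the members' levels was not tested. Its 10 alveolar type 2 markers summed to 27866 CPM, against 56615 to 85961 CPM in the other controls. Its 8 club cell markers summed to 2127 CPM (5957 to 12307 CPM in the other controls), its 7 ciliated cell markers to 9.93 CPM (35.3 to 221.5 CPM) and its 10 endothelial markers to 130.1 CPM (185.8 to 474.6 CPM). In each of these lists control 2 was the lowest control, and it was the highest of the 10 libraries in 0 of their genes. Fibroblast markers summed to 372 CPM in control 2 (94.9 to 311 CPM in the other controls), and leukocyte markers to 52.5 CPM (50.2 to 65.4 CPM). Alveolar type 1 markers summed to 1399.2 CPM in control 2, inside the 1301.5 to 2232.2 CPM of the other controls. Erythroid markers summed to 236.9 CPM (272.6 to 1461.8 CPM in the other controls). The 8 epithelial and tumor markers summed to 4314 CPM, below the 4909 to 6047 CPM of the other controls. Between the groups, leukocyte markers summed to 50.2 to 65.4 CPM in the controls and to 50.2 to 100.4 CPM in the Glut1-KO libraries, of which replicates 1 to 4 were above every control. Of 13 leukocyte markers tested, 11 were above 0, 0 passed the threshold in limma, 6 had an unadjusted p under 0.05 and the median log2 fold change was 0.59. Endothelial markers were above 0 in 10 of 10 (median 0.64, and 0.36 without control 2), ciliated cell markers below 0 in 7 of 7 (median -0.79, and -1.51 without control 2) and club cell markers below 0 in 6 of 8 (median -0.64, and -1.15 without control 2). With sex as a covariate the medians of these 3 lists were 0.07, -1.78 and -1.43, with 3 of 10 endothelial markers below 0. In the main fit none of the 3 lists held a gene past the threshold in limma, and 1 endothelial marker had an unadjusted p under 0.05. The medians of the alveolar type 2, alveolar type 1, fibroblast, erythroid and epithelial and tumor lists were 0.21, 0.11, -0.20, -0.55 and 0.02. Without control 2 they were -0.08, -0.10, 0.01, -0.80 and -0.03. With sex as a covariate they were -0.14, -0.31, 0.00, 0.24 and 0.33.

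**Figure D5:**
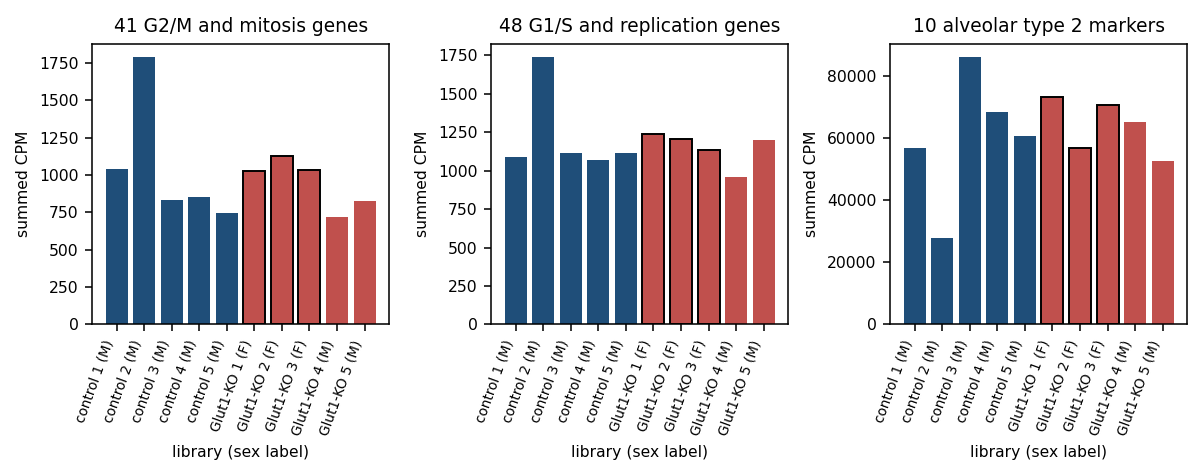
Summed CPM per library (controls blue, libraries labelled Glut1-KO red, female libraries outlined) of the 41 members, of 48 G1/S and replication genes and of 10 alveolar type 2 markers, with bars from 0. Control replicate 2 has the tallest bar in the first 2 panels (1789 and 1738 CPM) and the shortest in the third (27866 CPM).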

How the data were processed

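RNA of the CD45-negative fraction of 10 lung tumor samples was sequenced from a stranded TruSeq mRNA library. Per the submitters' processing notes, the authors used bcl2fastq 2.17, cutadapt 1.4.2, HISAT2, featureCounts 1.4.4 and edgeR with the build mm10. The annotation release and the use of strand in counting are not given in the sources used here. The deposited files hold raw read counts per gene as whole numbers, not normalized. The count files of the single libraries equalled the combined table, with 0 rows that name no gene. A deposited table of log2 values, 10 columns of per-sample values, was not used. Counts from PCR-amplified libraries without molecular identifiers are not independent molecules, so depth sets only the counting error.

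Genes were kept with edgeR 4.0.16 filterByExpr (minimum count 10, minimum total 15), scaled by TMM, transformed with voom and fitted with limma 3.58.1 in R 4.3.3, with the group as the only term. P-values were 2-sided and adjusted by Benjamini-Hochberg over all 15922 genes, with a threshold of 0.05. TMM scaling, voom and limma follow the published methods, which give no model terms. The scripts were tested on simulated data. TPM used the joined length of all exons of a gene in GENCODE M21 (GRCm38), which held 37693 of 39017 genes (96.6%) and all 41 members. Groups and sexes came from the labels, and some items of the labels and results are not reported here. Alternatives were edgeR's quasi-likelihood test, DESeq2 1.42.0, other scalings and filters, sex as a covariate or male libraries only, blocks, sample weights and each library left out. Members in the text were 20 picked by role, the 3 with the smallest p in each direction and those of extreme level. From other lists, genes with the smallest p were named. The members and lists were chosen with earlier results of these data known, and 4 further alternatives after seeing the data.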

Additional observations from a re-analysis of the deposited data

Results flagged for a closer look

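In groups of 5 libraries, 1 library was listed here where its gap to the nearest other library took more than 0.71 of the group's range, Dixon's limit at the 95% level. Of 92 groups of values examined, 25 met this, against 4.6 that chance would give, and 24 of the 25 were control replicate 2. The groups are not independent, because the genes share libraries.

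In control replicate 2 this held for 20 members. Among regulators of mitotic entry, it stood at 9.91 CPM for Cdc25c, 22.7 CPM for Plk1, 34.4 CPM for Aurka, 27.5 CPM for Nek2 and 49.8 CPM for Foxm1. Among checkpoint and separase genes, it stood at 44.8 CPM for Bub1, 70.3 CPM for Bub1b, 11.7 CPM for Ttk, 44.1 CPM for Ube2c and 27.9 CPM for Espl1. The values were 20.3 CPM for Aurkb, 43.4 CPM for Cenpf and 16.4 CPM for Spc25. For motors and microtubule binders they were 53.1 CPM for Kif11, 17.0 CPM for Kif15, 23.3 CPM for Kif2c, 26.7 CPM for Kif4, 67 CPM for Tpx2 and 42.7 CPM for Nusap1, and for the midzone motor Kif20a 78.9 CPM. In each case control replicate 2 was the highest control.

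The same library stood apart in the summed level of the 41 members (1789 CPM, other controls 748 to 1042 CPM), of the other G2/M and mitosis genes (3917 CPM, other controls 2760 to 3037 CPM) and of the G1/S and replication genes (1738 CPM, other controls 1072 to 1118 CPM), and in its total of 49.8 M counts (other controls 40.1 to 41.4 M). Nek2 in Glut1-KO replicate 4, at 12.7 CPM, lay below the 17.6 to 18.5 CPM of the other Glut1-KO libraries.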

How the results depend on the processing

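In all 25 alternatives 0 of the members tested passed the threshold. The members' median log2 fold change was below 0 in 20 alternatives and above 0 in 5: without control replicate 2 in limma (0.09) and DESeq2 (0.09), with the 3 female Glut1-KO libraries against 5 (0.05) or 4 controls (0.29), and with sample quality weights (0.06, with 28 of 41 members above 0). Leaving out 1 library at a time gave medians from -0.25 to 0.09, and only the 0.09 without control replicate 2 was above 0. The published methods removed genes with an average TPM under 20. That cutoff, with the exon lengths used here, kept 12 of the 41 members.

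The count of all genes past the threshold was 0 in the main limma fit. It was 215 of 15922 in DESeq2 (110 higher, 105 lower) and 276 of 16101 in DESeq2 without control replicate 2. In limma it was 3 with sex as a covariate (1 higher, 2 lower) and 1 in male libraries only (Fam25c, higher). It was 9 with the 3 female Glut1-KO libraries against all controls and 6 against 4 controls. Leaving out 1 library at a time gave 0 to 1, the 1 being Cyr61 (lower) without control replicate 3. The causes were not tested. Among the other G2/M genes, DESeq2 without control replicate 2 called 1 of 97, Psrc1 (higher, log2 fold change 1.53, DESeq2 adjusted p 0.0474). The control left out there was the highest in Psrc1, at 6.24 CPM against at most 3.29 CPM in the other controls. These genes were named after their values were seen. Slc2a1 turned from -0.62 to 0.06 with sex as a covariate and to 0.06 in male libraries only.

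Over all 41 members, none past the threshold, 22 went from below to above 0 without control replicate 2 and 0 the other way, and with sex as a covariate 7 went from above to below 0 and 1, Kif23 (0.00), from below to above. Single log2 fold changes were followed for the 24 members given with a value in every library, and these changed sign as follows. With edgeR's quasi-likelihood test Espl1 was at -0.01 and Cdc25c at -0.15, and with DESeq2 at -0.01 and -0.14. With RLE size factors Kif11 was at 0.00, and with the name number as a random block at 0.01. With sex as a covariate Mki67 was at -0.28, Cenpf at -0.30, Espl1 at -0.24, Cdc25c at -0.37 and Prc1 at -0.20. In male libraries only they were at -0.28, -0.30, -0.24, -0.38 and -0.20. With sample quality weights Top2a was at 0.03, Ccnb1 at 0.33, Plk1 at 0.03, Foxm1 at 0.11, Cdc20 at 0.09, Birc5 at 0.04, Cenpa at 0.15, Kif11 at 0.14, Tpx2 at 0.03, Kif20a at 0.01, Ect2 at 0.16 and Kif15 at 0.03. Leaving out 1 library at a time, Mki67 ran from -0.00 to 0.36, Ccnb1 from -0.26 to 0.18, Plk1 from -0.31 to 0.08, Foxm1 from -0.22 to 0.16, Aurka from -0.41 to 0.08, Bub1 from -0.44 to 0.02, Birc5 from -0.31 to 0.03, Cenpa from -0.21 to 0.27, Kif11 from -0.11 to 0.22, Tpx2 from -0.39 to 0.07, Kif20a from -0.42 to 0.12, Ect2 from -0.13 to 0.12, Espl1 from -0.11 to 0.28, Cdc25c from -0.24 to 0.41, Prc1 from -0.03 to 0.20 and Kif15 from -0.28 to 0.11. The highest of each of these ranges came without control replicate 2.

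Control and Glut1-KO libraries share replicate numbers, but no label ties them. Deviations of same-numbered libraries from their group means correlated across genes at 0.069, -0.065, 0.050, 0.251 and -0.115, and 1 of 5 controls correlated best with its own number. With a replicate block, 0 members and 0 genes passed the threshold, the members' median was -0.18, and Cdc25c was at -0.07.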

Other observations

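A pair of spindle genes outside the 41 members, both chosen after their values were seen, ran in opposite directions. Stmn1, which encodes the microtubule destabilizer stathmin, had 78.3, 148, 139, 126 and 149 CPM in controls 1 to 5 and 82.2, 103, 89.8, 32.7 and 39.3 CPM in Glut1-KO 1 to 5. The male Glut1-KO libraries were the lowest, and control 1 lay below the female Glut1-KO libraries. Its log2 fold change was -0.98 ± 0.33 (SE), with a limma adjusted p of 0.513. Psrc1, which encodes a microtubule-binding protein of the spindle, had 3.29, 6.24, 1.58, 1.37 and 1.42 CPM in the controls and 2.63, 5.16, 7.34, 9.39 and 3.10 CPM in the Glut1-KO libraries. Its highest library was Glut1-KO replicate 4, the library that was lowest in 21 of the 41 members. Its log2 fold change was 1.04 ± 0.50 (SE), with a limma adjusted p of 0.668.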
